A study of Mus musculus with 2 samples.

Results

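The nuclear-encoded genes of the respiratory chain were followed across the cells of the popliteal lymph node (PLN) in TNF-Tg mice. They were all genes whose symbol starts with Ndufa, Ndufb, Ndufc, Ndufs, Ndufv, Uqcr, Cox4 to Cox8 or Atp5, together with Sdha, Sdhb, Sdhc and Sdhd. This rule, which reads names and no measured value, found 94 of the 32285 genes listed. They comprised 37 subunits of complex I, 4 of complex II, 8 of complex III, 12 of complex IV and 17 of complex V, as well as 8 assembly factors of complex I (the Ndufaf genes) and 8 tissue-specific forms of complex IV subunits or their relatives, which were kept apart.

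TNF-Tg mice overexpress TNF from an added transgene and are a model of inflammatory arthritis. Both libraries came from male TNF-Tg mice on a C57BL/6 background whose hindpaws had been injected with Evans blue dye, so the groups shared sex, genotype and procedure, and no wild-type library was analysed here. The Early library came from mice of 5 to 6 months and the Advanced library from mice older than 8 months, each from 6 PLNs of 3 mice pooled into 1 library. Nucleated (Hoechst-positive) live cells, which exclude Sytox Green, were sorted and sequenced with 10x Genomics 3′ chemistry, which counts unique molecular identifiers (UMIs) near the 3′ end of transcripts. With 1 library per stage there was no replicate and no test. Mouse age, stage and library cannot be told apart, and every interval given is a 95% interval of counting error alone.

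The respiratory chain of the inner mitochondrial membrane passes electrons from NADH (complex I) and succinate (complex II) through complex III to oxygen at complex IV, and complex V, the ATP synthase, uses the resulting proton gradient to make ATP. Complexes I, III, IV and V combine nuclear-encoded subunits with a few encoded by the mitochondrial genome (the mt- genes), whereas complex II is nuclear-encoded throughout. Lymphocytes are small and quiet until they meet antigen, and their entry into division is known to be accompanied by mitochondrial growth.

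The Early library held 8221 cells and 67596192 UMIs and the Advanced library 8183 cells and 83137727 UMIs, with medians of 6643 and 7837 UMIs per cell. The 2 libraries shared 20 cell barcodes. Cells were assigned by raw UMIs of marker genes, none of them a member. There were 7438 Early and 5732 Advanced B-cells, 137 and 1114 T-cells, 72 and 101 cycling B-cells, 32 and 45 cycling T-cells, 16 and 23 plasma cells, 104 and 179 monocytes, 40 and 90 conventional dendritic cells, and 57 and 84 plasmacytoid dendritic cells (pDCs). Every class had a UMI of all its own defining markers. Summed B-cell markers stood at 5595 and 5373 UMIs per 1000000 (CPM) in B-cells, at 843 and 1164 CPM in plasma cells, and at 64.2 to 165 CPM in T-cells, cycling T-cells, monocytes and dendritic cells. Summed monocyte markers stood at 13043 and 11904 CPM in monocytes, at 1676 and 2366 CPM in pDCs, 804 and 296 CPM in plasma cells, 459 and 592 CPM in conventional dendritic cells and 209 and 481 CPM in T-cells, and their part in the results was not tested. Cells with at least 5 of the 10 cycling genes were not classed as plasma cells. Summed plasma cell markers stood at 950 and 410 CPM in cycling B-cells, against 130 and 162 CPM in B-cells, and their part was not tested. A further 83 Early and 343 Advanced cells carried markers of more than 1 lineage and were set aside as mixed, and 225 and 431 cells, with a median of 1339 and 1336 UMIs, had no class.

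Together the 94 genes supplied 1.82% of all Early and 1.84% of all Advanced UMIs, beside 5.00% and 4.82% from the 13 protein-coding mt- genes. Over both libraries 85 of the 94 reached 10 CPM, among them every subunit of complexes I to V, 6 of the 8 assembly factors and 1 of the 8 tissue-specific forms. Complex V held 31.2% of the members' UMIs, complex I 29.7%, complex IV 26.8%, complex III 9.58% and complex II 1.34%. Since each UMI stands for 1 transcript end, levels of different genes were compared as UMIs with no scaling by length.

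In complex I the highest levels over both libraries belonged to Ndufb1-ps at 463 CPM, Ndufa13 at 291 CPM and Ndufa2 at 289 CPM. All encode accessory subunits, although Ndufb1-ps (chr12:101968090-101977068, minus strand, mm10) is listed in GENCODE as a noncoding transcript of a bidirectional promoter. In complex II, Sdhb (89.4 CPM), the iron-sulfur subunit, and Sdha (78.4 CPM), the flavoprotein that oxidises succinate, lay above the membrane anchors Sdhd (48.7 CPM) and Sdhc (29.2 CPM). Every complex II gene was therefore lower than any of the 12 complex IV subunits, the lowest of which had 195 CPM.

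In complex III the hinge protein gene Uqcrh (671 CPM) was about as high as the leading complex IV genes, and Uqcrq (214 CPM) and Uqcr10 (213 CPM) followed at a distance. In complex IV the highest were Cox4i1 (684 CPM), Cox8a (681 CPM) and Cox7c (622 CPM), which encode nuclear subunits that surround the catalytic core. In complex V, Atp5e, the epsilon subunit of the central stalk, led at 892 CPM, the highest of all members, and Atp5g2 (520 CPM), a gene of the membrane ring subunit c, and Atp5l (514 CPM), subunit g, came next.

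Cell classes differed more than stages in the summed level of the 94 genes. In both libraries cycling T-cells were highest (33797 CPM Early and 30661 CPM Advanced), followed by cycling B-cells (28503 and 28247 CPM) and pDCs (24292 and 23482 CPM), and plasma cells were lowest (10178 and 10795 CPM). Then came T-cells (21964 and 18831 CPM) and conventional dendritic cells (21495 and 20052 CPM), and below them monocytes (17976 and 16219 CPM) and B-cells (17120 and 16888 CPM). T-cells and conventional dendritic cells changed places between the libraries, and so did monocytes and B-cells, so the order of these neighbours was not the same in both. These levels are shares of all UMIs of a class, of which immunoglobulin genes took 61.3% and 55.4% in plasma cells. Ribosomal protein genes took 36.2% and 35.5% in B-cells, and 18.3% and 18.5% in monocytes. The order of the classes is given for this scaling alone.

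**Figure D1:**
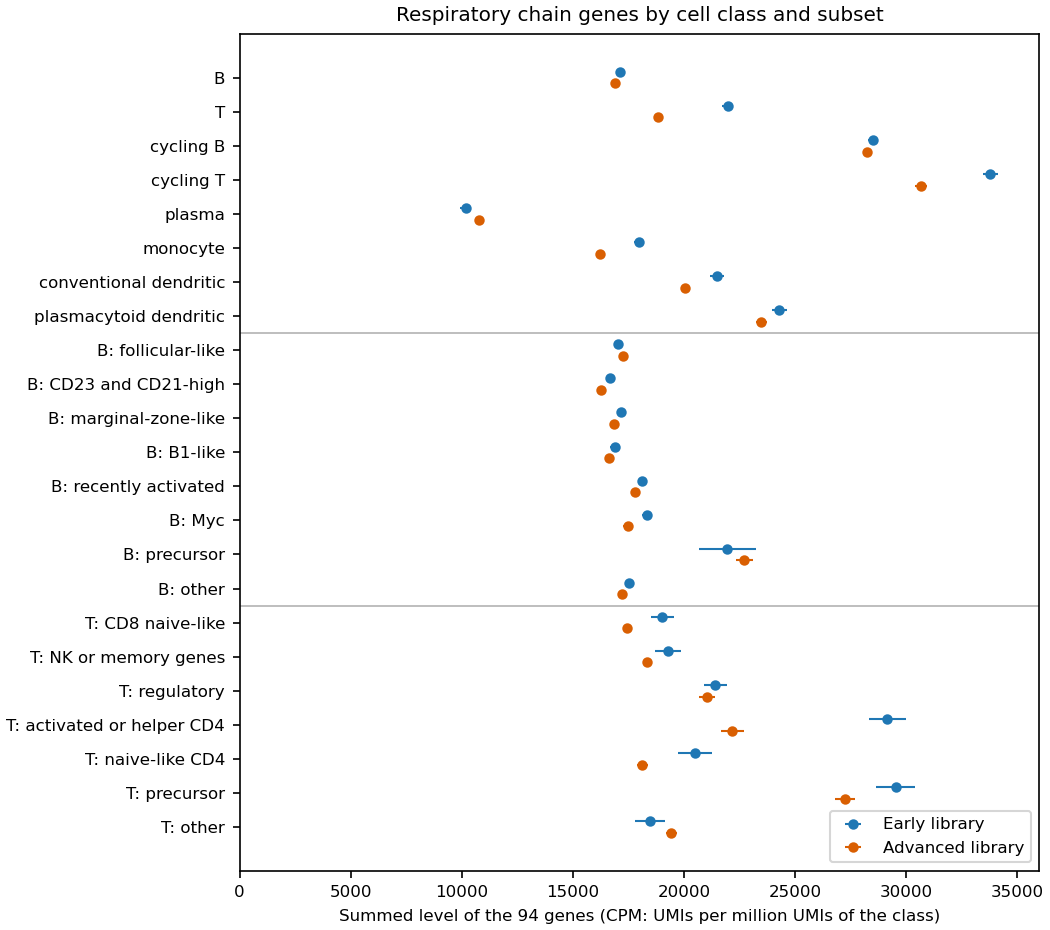
Summed level of the 94 genes, in CPM of the class, in each cell class (top), B-cell subset (middle) and T-cell subset (bottom) of the Early and Advanced libraries. Points are the levels and bars exact 95% intervals of the counts. Cycling cells lie at 28247 to 33797 CPM, B-cell subsets other than precursors at 16278 to 18336 CPM and plasma cells at 10178 and 10795 CPM.

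The cycling B-cells, marked by genes of DNA replication and mitosis such as Top2a and Mki67, had 1.66-fold the summed level of other B-cells in the Early library and 1.67-fold in the Advanced library. Of the 85 members at 10 CPM, 55 were past 1.5-fold higher in both libraries, where 22% of all 7092 genes at this level were, and none was past 1.5-fold lower, where 16.5% were. The median member ratio was 1.74 and 1.75, and the median of all genes 1.04 and 1.03. The 55 comprised 23 of 37 members of complex I, 2 of 4 of complex II, 7 of 8 of complex III, 9 of 12 of complex IV, 13 of 17 of complex V and 1 of 6 assembly factors.

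By the smaller of the ratios in both libraries, the leading members were Ndufc2, an accessory subunit of complex I, Atp5g3, another gene of subunit c, Atp5b, the catalytic beta subunit of the ATP synthase, and the complex III subunit gene Uqcr10. Ndufc2 stood at 275 CPM in cycling B-cells of the Early and 276 CPM of the Advanced library, against 106 and 108 CPM in other B-cells, ratios of 2.59 (2.38 to 2.81) and 2.56 (2.38 to 2.75). Atp5g3 stood at 435 and 422 CPM against 163 and 168 CPM, ratios of 2.67 and 2.51. Atp5b had 622 and 607 CPM against 250 and 249 CPM, ratios of 2.49 and 2.44, and Uqcr10 had ratios of 2.54 and 2.43. For these genes the counting intervals of the classes were far apart in both libraries.

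Within complex II the subunits parted. Sdhb had 204 and 185 CPM in cycling B-cells against 76.0 and 81.2 CPM in other B-cells, ratios of 2.69 and 2.28. Sdhd was 2.42- and 2.21-fold higher, and Sdhc, with 76 and 135 UMIs in cycling cells, 1.35- and 1.53-fold. Sdha, in contrast, had 88.4 and 77.6 CPM against 79.3 and 78.6 CPM, ratios of 1.11 (0.963 to 1.28) and 0.988 (0.865 to 1.12), so that no difference in the flavoprotein subunit was detectable at this depth. In cycling T-cells against other T-cells Sdha had ratios of 0.988 and 1.22, and Sdhd, at 2.89 and 2.56, had the largest ratio of any member past 1.5-fold there in the Early library.

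Only 3 of the 85 members were below 1 in cycling B-cells of both libraries. Ndufa6, an accessory subunit of complex I, had 197 and 222 CPM against 279 and 298 CPM, ratios of 0.707 and 0.746. Cox7a2l had ratios of 0.787 and 0.901 and Uqcrh 0.90 and 0.914. The most abundant members had modest ratios, with 1.39 and 1.29 for Atp5e, 1.30 and 1.31 for Cox4i1 and 1.53 and 1.59 for Cox8a. In cycling T-cells, 46 of the 85 were past 1.5-fold higher than in other T-cells in both libraries (16.8% of all genes) and 1, Cox7a2l, was past 1.5-fold lower (10.7% of all genes).

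Depth moved with this result. Cycling B-cells had medians of 26531 and 26401 UMIs against 6574 and 7421 in other B-cells, and among other B-cells the summed level was itself higher in deeper cells, at 16839 and 16532 CPM in cells of 5000 to 10000 UMIs and 21314 and 19712 CPM in the 72 and 107 cells above 20000 UMIs. Between 10000 and 20000 UMIs, where 20 Early and 26 Advanced cycling B-cells could be set against 987 and 1101 others, still with medians of 16932.5 and 14926 against 12133 and 12493 UMIs, the ratio was 1.59 (1.55 to 1.62) and 1.55 (1.52 to 1.58). Above 20000 UMIs it was 1.34 and 1.45. In cells of 3000 to 15000 UMIs, 33 members rather than 55 were past 1.5-fold in both libraries.

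The mt- genes ran the other way in cycling cells. All 13 were lower in cycling B-cells than in other B-cells in both libraries, with medians of 0.737 and 0.6998, and 3 of them, mt-Nd2, mt-Nd5 and mt-Co1, were past 1.5-fold lower in both. For mt-Co1, the core subunit of complex IV, 5589 and 5848 CPM stood against 8497 and 9233 CPM. The number of nuclear member UMIs per mt- UMI, which needs no library total, was 0.747 and 0.780 in cycling B-cells and 0.328 and 0.314 in other B-cells. In cycling T-cells it reached 1.09 and 1.00, against 0.509 and 0.461 in other T-cells.

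**Figure D2:**
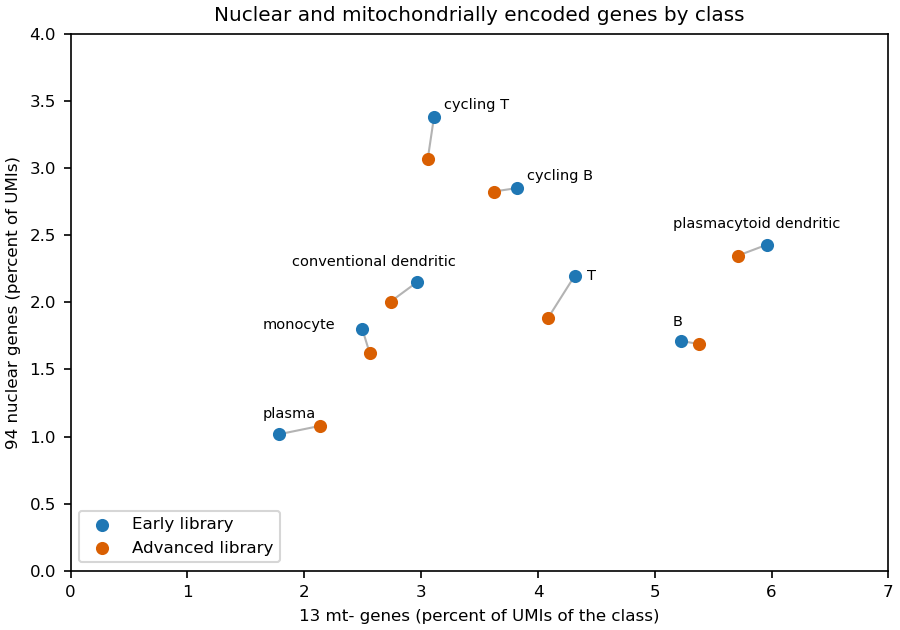
Share of all UMIs of a class that came from the 94 nuclear genes (vertical, percent) against the share from the 13 mt- genes (horizontal, percent), with a line joining the Early and Advanced libraries of each class. B-cells and pDCs lie farthest right, cycling T-cells lie highest, and plasma cells have the lowest share of both.

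Across all classes nuclear and mt- genes did not move in step. In monocytes the mt- genes were at 0.478 and 0.476 of their level in B-cells while the 94 nuclear genes were at 1.05 and 0.960, and in conventional dendritic cells the values were 0.567 and 0.509 against 1.26 and 1.19. Monocytes and conventional dendritic cells thus had 0.720 and 0.634, and 0.725 and 0.732, nuclear UMIs per mt- UMI. B-cells had the lowest ratio of the 8 classes in both libraries, and among their subsets the B1-like cells, marked by Bhlhe41 and Apoe, had the lowest, at 0.286 and 0.275, with mt- genes at 5.91% and 6.05% of UMIs. In pDCs both groups were above B-cells, at 1.42 and 1.39 for the nuclear and 1.14 and 1.06 for the mt- genes.

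**Figure D3:**
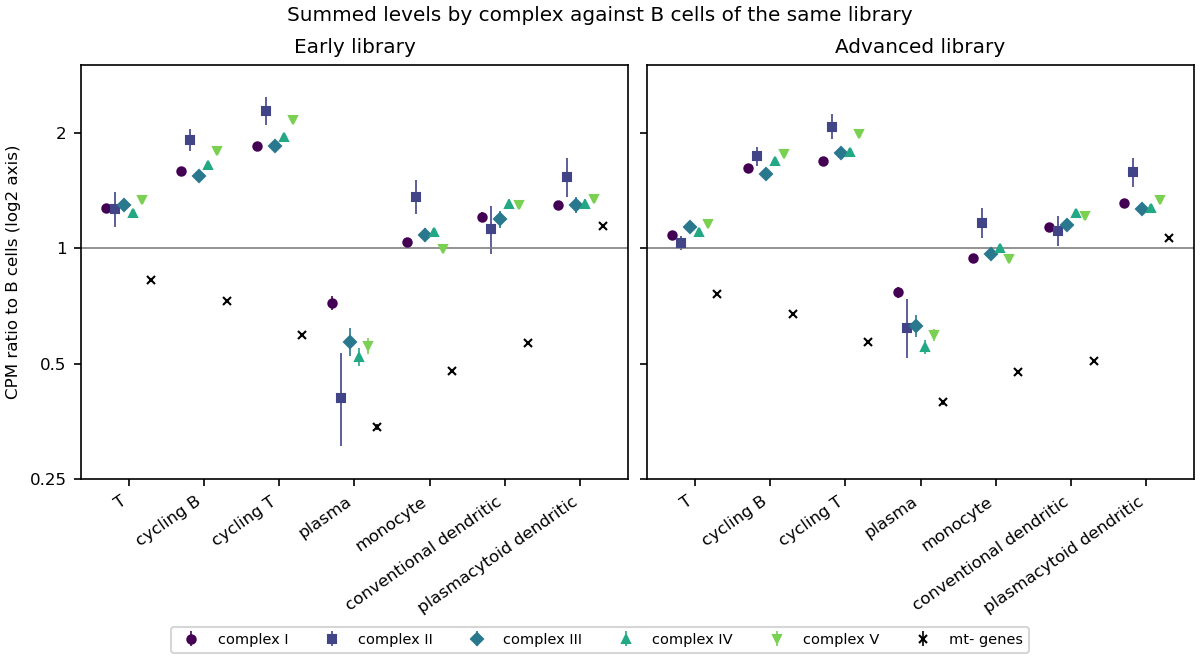
CPM of each complex in 7 cell classes divided by that in B-cells of the same library (log2 axis), with the 13 mt- genes as crosses and bars for exact 95% intervals of the counts. Nuclear complexes and mt- genes lie on opposite sides of 1 in T-cells, cycling cells and conventional dendritic cells, and complex II is the highest complex in cycling T-cells, monocytes and pDCs of both libraries.

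The promoters of the members were read from RefSeq windows of GRCm38.p6, which run from 250 bases before to 50 after a gene's start. Windows were found for 77 of the 94 members, 75 of them under the same symbol and the others through a synonym. Nuclear respiratory factor 1 and the ETS factor GABP are known activators of respiratory chain genes, so their core letters were searched on both strands, GCGCA and GCGC parted by any 1 base (N) for the former and CCGGAAG for the latter, together with CCAAT, the box read by NF-Y. The NRF1 core was in 23.4% of the members' windows (18 of 77) against 4.78% of all 27025 windows, and the ETS core in 23.4% against 9.12%. CCAAT was in 44.2% against 37.9%. G and C made up 57.9% of the bases in the members' windows and 53.6% in all windows. The part of base composition in these shares was not tested. Of the 48 windows of members past 1.5-fold in cycling B-cells, 27.1% held the NRF1 core and 22.9% the ETS core, and of the 24 windows of tested members that were not, 16.7% and 29.2%.

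To show these windows, the 250 bases before the start are printed 5′ to 3′ for the 4 members with the largest ratios in cycling B-cells, followed by the 2 most abundant members whose upstream bases hold an NRF1 core. Capitals mark the letters searched for, on either strand. The former lie at chr7:97399753-97400002 (plus strand), chr2:73911327-73911576 (minus), chr10:128083057-128083306 (plus) and chr11:4704345-4704594 (minus), and the latter at chr15:102671048-102671297 and chr11:115419920-115420169, both minus.
Ndufc2: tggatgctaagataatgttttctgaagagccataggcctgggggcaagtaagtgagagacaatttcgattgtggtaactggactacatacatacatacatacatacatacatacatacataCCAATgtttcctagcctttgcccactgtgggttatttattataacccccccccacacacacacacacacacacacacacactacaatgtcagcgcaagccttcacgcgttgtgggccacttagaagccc
Atp5g3: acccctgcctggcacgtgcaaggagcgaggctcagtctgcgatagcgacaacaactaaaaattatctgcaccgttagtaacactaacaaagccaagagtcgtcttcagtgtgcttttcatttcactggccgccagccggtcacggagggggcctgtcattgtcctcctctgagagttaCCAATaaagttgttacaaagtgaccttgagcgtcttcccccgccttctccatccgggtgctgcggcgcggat
Atp5b: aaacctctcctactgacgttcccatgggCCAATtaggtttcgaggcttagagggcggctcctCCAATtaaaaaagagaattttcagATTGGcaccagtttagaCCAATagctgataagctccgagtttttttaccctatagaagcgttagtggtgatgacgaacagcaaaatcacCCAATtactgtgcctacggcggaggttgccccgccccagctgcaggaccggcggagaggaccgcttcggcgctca
Uqcr10: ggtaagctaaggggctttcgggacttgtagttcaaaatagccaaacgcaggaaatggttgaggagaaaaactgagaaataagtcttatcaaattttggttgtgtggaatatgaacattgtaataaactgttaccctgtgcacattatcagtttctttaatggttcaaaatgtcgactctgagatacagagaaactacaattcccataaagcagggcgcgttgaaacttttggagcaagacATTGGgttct
Atp5g2: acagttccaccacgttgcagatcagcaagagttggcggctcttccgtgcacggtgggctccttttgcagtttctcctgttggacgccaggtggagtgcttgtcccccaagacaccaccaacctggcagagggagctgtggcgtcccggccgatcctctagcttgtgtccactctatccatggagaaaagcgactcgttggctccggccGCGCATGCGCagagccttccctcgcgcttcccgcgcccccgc
Atp5h: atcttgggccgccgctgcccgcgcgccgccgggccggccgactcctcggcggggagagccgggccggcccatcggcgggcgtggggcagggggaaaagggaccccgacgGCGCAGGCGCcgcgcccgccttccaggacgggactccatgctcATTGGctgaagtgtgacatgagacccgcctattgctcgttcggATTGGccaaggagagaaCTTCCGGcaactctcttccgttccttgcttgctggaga
None of the first 4 holds an NRF1 or ETS core in these bases. Atp5b holds 5 CCAAT boxes, and Ndufc2, Atp5g3 and Uqcr10 hold 1 each. In Atp5g2 the NRF1 core begins 42 bases before the start, and Atp5h holds both cores. A match is a description of the letters and not of binding.

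Plasma cells, which secrete antibody, had the lowest summed level of the 94 genes, with ratios to B-cells of 0.594 and 0.639. Of the 85 members 43 were past 1.5-fold lower in both libraries, but so were 71.9% of all genes, and only Ndufa1 was past 1.5-fold higher, where 3.88% of all genes were. The median gene was at 0.340 and 0.403 of B-cells and the median member at 0.571 and 0.627, so members lay above the median gene although below B-cells. Immunoglobulin genes took 61.3% and 55.4% of plasma cell UMIs. With size factors set by the median gene, which lay at -1.47 and -1.28 against B-cells on the log2 scale, 34 members were past 1.5-fold higher and none lower, and on totals taken without immunoglobulin, ribosomal protein and mt- genes 14 were higher and 4 lower, so the direction in plasma cells depends on the scaling.

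Ndufa1, a small subunit that anchors complex I in the membrane, had 427 and 370 CPM in plasma cells against 156 and 151 CPM in B-cells, ratios of 2.75 (2.41 to 3.11) and 2.46 (2.19 to 2.74). At the other end Cox7a2l had 86.2 and 114 CPM against 402 and 378 CPM, ratios of 0.214 and 0.302. Ndufa6 and Uqcrh stood at 0.321 and 0.312, and 0.329 and 0.349, and Ndufaf7, an assembly factor that methylates a complex I subunit, rested on 3 UMIs in each library. These 16 and 23 cells had medians of 37013.5 and 36333 UMIs. In 3 of these genes, Cox7a2l, Ndufa6 and Uqcrh, plasma cells and cycling B-cells were both below other B-cells. In plasma cells, though, 75 of the 85 members (88.2%, against 87.0% of all genes) were below B-cells in both libraries.

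Plasmacytoid dendritic cells, which release type I interferon, were recognised by Siglech, Ccr9, Klk1 and Pacsin1. Of the 85 members 12 were past 1.5-fold higher than in B-cells in both libraries (19.5% of all genes) and none past 1.5-fold lower (14.1% of all genes). The 12 were 11 subunits of complexes I to V and Cox6a2, which reached 10 CPM only through pDCs and mixed cells. Among the 11 were 3 of the 4 complex II genes, with ratios of 1.69 and 1.79 for Sdhb, 1.89 and 1.77 for Sdhc and 1.63 and 1.53 for Sdhd, and Sdha had 1.22 and 1.31. Uqcr11, a small subunit of complex III, had 381 and 356 CPM against 163 and 158 CPM, ratios of 2.34 and 2.25. Ndufs5 (1.97 and 1.86) and Uqcrq (1.92 and 1.81) followed. The median gene lay 0.16 above B-cells on the log2 scale in the Early library and 0.096 above in the Advanced one. On totals without immunoglobulin, ribosomal protein and mt- genes, 5 members rather than 12 were past 1.5-fold higher.

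The tissue-specific form Cox6a2 stood apart. It encodes the form of complex IV subunit 6A known from heart and skeletal muscle, lies at chr7:128205435-128206387 on the minus strand of mm10, and had 1506 UMIs (1795 CPM) in the 57 Early and 2045 UMIs (1436 CPM) in the 84 Advanced pDCs. In B-cells it had 21 UMIs (0.375 CPM) and 86 UMIs (1.75 CPM). The ratio of pDCs to B-cells was 4784 (3118 to 7752) Early and 823 (663 to 1033) Advanced. At least 1 Cox6a2 UMI was seen in 96.5% and 95.2% of pDCs, with a median of 24 UMIs per cell in both libraries.

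With each cell thinned to 2000 UMIs, 87.5% and 84.3% of pDCs kept a Cox6a2 UMI, against 0.121% and 0.367% of B-cells, which serve as the background. Unthinned, B-cells had 0.282% and 1.08% at medians of 6574 and 7421 UMIs, and pDCs had medians of 14135 and 16644. Among pDCs Cox6a2 made up 86.7% and 86.1% of the UMIs of Cox6a1 and Cox6a2 together, and in the other 7 classes at most 4.03%. Cox6a1, the form of most tissues, was not lower in pDCs than in B-cells, at 275 and 232 CPM against 179 and 177 CPM.

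**Figure D4:**
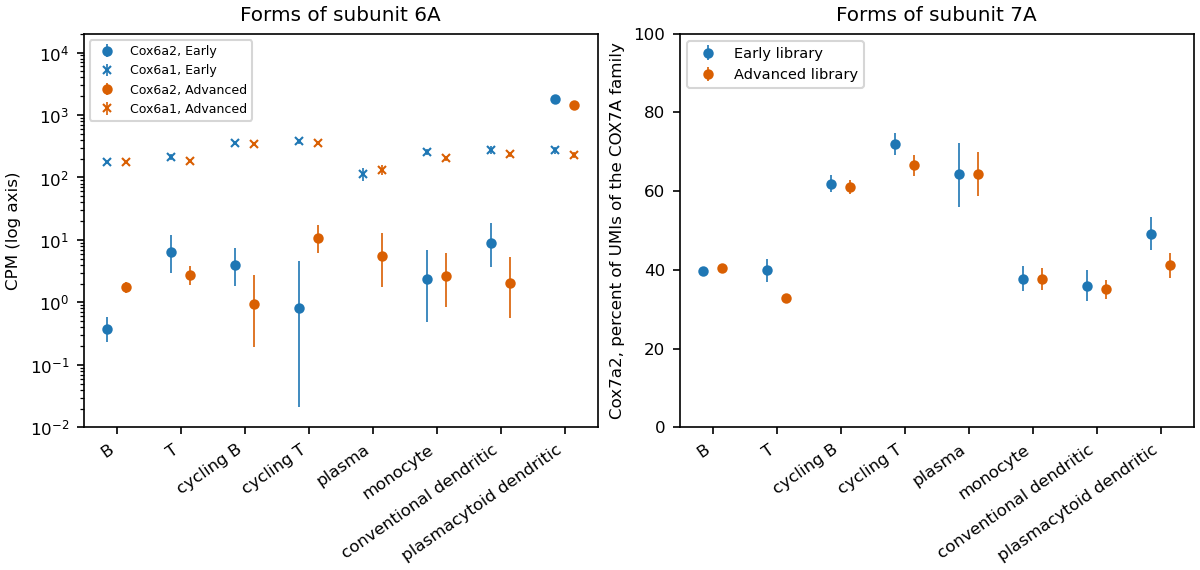
Left, CPM (log axis) of Cox6a2 and Cox6a1 by cell class and library, with exact 95% intervals of the counts; a class with no UMI has no point (Cox6a2 in Early plasma cells). Right, UMIs of Cox7a2 as a percent of those of Cox7a1, Cox7a2 and Cox7a2l. Cox6a2 stands at 1795 and 1436 CPM in pDCs and at most at 10.8 CPM in the other classes, and the Cox7a2 share is above 60% in cycling cells and plasma cells.

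Outside pDCs most cells rich in Cox6a2 were mixed cells. Of the 63 Early and 140 Advanced cells with at least 3 UMIs, 52 and 76 were pDCs, and 6 and 44 were mixed cells, of which 6 and 41 carried the pDC markers beside those of another lineage. That left 5 Early and 20 Advanced cells. Mixed cells with pDC markers, 7 and 52 in number, held 126 and 1051 Cox6a2 UMIs. In B-cells Cox6a2 was 4.65-fold higher in the Advanced library (2.86 to 7.89), while the summed pDC markers in the same B-cells stood at 20.3 and 26.2 CPM, T-cell markers at 2.84 and 16.2 CPM, neutrophil markers at 2.95 and 22.1 CPM and mast cell markers at 0.947 and 9.74 CPM. In T-cells it was 17.1-fold higher than in B-cells in the Early and 1.56-fold higher in the Advanced library, and 8 of the 9 Early and 12 of the 33 Advanced UMIs came from the 9 and 58 T-cell precursors. The part of free RNA or of joined cells in these low values was not tested.

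Of the other tissue-specific forms, Cox6b2, the testis form of subunit 6B, was highest in conventional dendritic cells and cycling T-cells. Conventional dendritic cells had 20 and 35 UMIs (26.0 and 18.2 CPM) in 12 of 40 and 23 of 90 cells, and cycling T-cells 14 and 31 UMIs (11.5 and 19.7 CPM) in 6 of 32 and 16 of 45 cells. Monocytes had 10.9 and 4.69 CPM, and B-cells, the background, 0.5003 and 0.690 CPM with a UMI in 0.323% and 0.523% of cells. Thinned to 2000 UMIs, 7.50% and 2.22% of conventional dendritic cells had one, 0 of the 32 Early cycling T-cells, which allows up to 9.38%, and 6.67% of the Advanced ones, and 0.0807% and 0.0699% of B-cells. Median depths were 17191.5 and 19627 UMIs in conventional dendritic cells and 33923 and 32601 in cycling T-cells. In conventional dendritic cells Cox6b1, the general form, supplied 95.3% and 96.2% of the UMIs of the pair. Cox7a1, the muscle form of subunit 7A, had 33 and 52 UMIs in all B-cells, and Cox4i2, the lung form of subunit 4, 12 UMIs in 6 of the 23 Advanced plasma cells. In the 16 Early plasma cells it had none, which allows a share of up to 18.8% of cells with a UMI (3 counts of 16 cells). Ndufa4l2 had 4 UMIs in the Advanced and none in the Early library. Cox7b2, Cox8b and Cox8c had no UMI in either library.

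Among forms that lymphocytes do use, the COX7A family divided by class. Cox7a2 encodes the general form of subunit 7A, and Cox7a2l encodes a relative of that subunit. Cox7a2 made up 39.7% (39.2% to 40.2%) and 40.6% (40.0% to 41.1%) of the family's UMIs in B-cells, and 61.9% (59.7% to 64.1%) and 61.0% (59.2% to 62.8%) in cycling B-cells. In T-cells it made up 39.9% and 32.8%, and in cycling T-cells 72.0% and 66.5%. Plasma cells, at 64.3% and 64.4%, were like cycling cells in this measure, with wide intervals in the Early library (55.9% to 72.2%). Cycling B-cells had plasma cell markers at a higher CPM than B-cells, and the part of this in the likeness was not tested.

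This share compares 2 genes within the same cells and needs no library total. Taken over Cox7a2 and Cox7a2l alone and between 10000 and 20000 UMIs per cell, Cox7a2 made up 40.2% in B-cells of both libraries, and 58.2% and 65.7% in cycling B-cells. In B-cells above 20000 UMIs it was 46.9% and 46.1%. B-cells with at least 3 Myc UMIs had 48.3% and 44.2% of the whole family.

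Of the 3 genes for subunit c, which encode the same mature protein with different import signals, Atp5g2 held the largest share in every class of both libraries, from 38.1% to 60.0%. It was lower in cycling B-cells (50.6% and 50.4%) than in B-cells (56.9% and 57.9%), where Atp5g3 had 25.02% and 24.9% against 19.4% and 19.5%. In plasma cells Atp5g1 held 36.7% and 35.4%, against 23.7% and 22.6% in B-cells.

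In monocytes members were near their level in B-cells. Of the 85, 1 was past 1.5-fold higher and 2 past 1.5-fold lower in both libraries, where 23.8% and 18.5% of all genes were. The 1 higher was Ndufaf7, with 48.1 and 49.5 CPM against 15.9 and 18.2 CPM, ratios of 3.02 (2.29 to 3.90) and 2.72 (2.18 to 3.36). The lower ones were Ndufa12 (0.450 and 0.540), an accessory subunit, and the assembly factor Ndufaf4 (0.464 and 0.633). Without immunoglobulin, ribosomal protein and mt- genes in the totals 24 members were past 1.5-fold lower in monocytes. Ribosomal protein genes took 18.3% and 18.5% of UMIs in monocytes and 36.2% and 35.5% in B-cells.

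In conventional dendritic cells 6 members were past 1.5-fold higher than in B-cells in both libraries (16.7% of all genes) and 1 past 1.5-fold lower (17.2% of all genes). Ndufc2 had 210 and 195 CPM against 106 and 108 CPM, ratios of 1.98 and 1.81. The others were Ndufb8 (1.93 and 1.65), Ndufv2 (1.73 and 1.51), Uqcr11 (1.68 and 1.53), Ndufb4 (1.58 and 1.52) and Atp5h (1.56 and 1.51), and Ndufaf4 was the lower one (0.555 and 0.489). On totals without immunoglobulin, ribosomal protein and mt- genes the count was 0 higher and 4 lower. Ndufaf4 was thus lower in both myeloid classes, with 15 to 40 UMIs per class and library.

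T-cells as a class were above B-cells, with ratios of 1.28 and 1.12 for the sum of the 94 genes, and 65 of the 85 members (76.5%, against 35.3% of all genes) were above B-cells in both libraries. Only Cox6a2, with 9 and 33 UMIs (6.43 and 2.72 CPM), was past 1.5-fold higher in both (8.78% of all genes) and no member was past 1.5-fold lower (12.7% of all genes). Cox6a2 reached 10 CPM only through pDCs and mixed cells, so without it no member was past 1.5-fold in T-cells in either direction. Against B-cells the median gene of T-cells lay at 0.16 on the log2 scale in the Early and at -0.12 in the Advanced library, and member medians of 1.34 and 1.09 were above it in both.

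T-cell subsets were spread more widely than B-cell subsets. Precursors with Dntt or Rag1 had the highest level in the Advanced library (27252 CPM) and in the Early library (29527 CPM, 9 cells), next to activated or helper CD4 cells with 29137 CPM in 15 Early cells and 22169 CPM in 36 Advanced cells. Regulatory T-cells, which express Foxp3, had 21398 and 21034 CPM, T-cells with NK or memory genes 19282 and 18346 CPM, and naive-like CD8 cells 19018 and 17420 CPM. Regulatory T-cells were above naive-like CD8 cells in both libraries by more than counting error.

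B-cell subsets were close together. Follicular-like, CD23 and CD21-high, marginal-zone-like and B1-like cells lay between 16278 and 17242 CPM. Recently activated B-cells with Egr3 and Cd83 (18094 and 17778 CPM) and those with Myc (18336 and 17472 CPM) had 1.06- and 1.06-fold, and 1.07- and 1.04-fold, the level of the other B-cells. B-cell precursors, 6 Early and 55 Advanced cells, were set apart at 21931 and 22719 CPM, 1.28- and 1.35-fold.

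Between stages the level in B-cells differed little. The sum of the 94 genes stood at 17120 CPM in the Early and 16888 CPM in the Advanced library, a ratio of 0.986 (0.984 to 0.989), while the median gene had a ratio of 1.05. Subsets did not all share this direction. The ratio was 0.976 in CD23 and CD21-high, 0.983 in marginal-zone-like, 0.984 in B1-like, 0.983 in recently activated and 0.953 in Myc cells. Follicular-like cells had 1.013 (1.006 to 1.021), precursors 1.04 (0.975 to 1.10) and the remaining B-cells 0.982. Of the 85 members 52 were below 1 in B-cells as a whole, where 29% of all genes were. The interval was wholly below 1 in 30 members (35.3%, against 10.2% of all genes) and wholly above in 19 (22.4%, against 39.7%). A gene counted as higher when it was at least 25% higher with its interval above 1, and as lower when its ratio was at most 0.8 with its interval below 1. Cox6a2 alone counted as higher, against 7.3% of all genes, and no member as lower, against 0.536%. Cox6a2 reached 10 CPM only through pDCs and mixed cells and had 0.375 and 1.75 CPM in B-cells, so without it no member counted in either direction. The remaining members lay between 0.906 and 1.14.

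Complex IV lay lowest, with 11 of 12 subunits below 1 and a median of 0.965, and complex II highest, with 1 of 4 below 1 and a median of 1.08. In complexes I, III and V 22 of 37, 4 of 8 and 10 of 17 were below 1. Ndufa4, a subunit first placed in complex I and now counted in complex IV, had 329 CPM in the Early and 301 CPM in the Advanced library, a ratio of 0.916 (0.897 to 0.937), and Cox4i1 had 657 CPM in both. The lowest ratio was that of Atp5f1, which encodes the peripheral stalk subunit b, at 274 and 248 CPM and 0.906 (0.884 to 0.927). In complex II, Sdhb had 76.0 and 81.2 CPM, a ratio of 1.07 (1.022 to 1.12), Sdhc 1.11 (1.03 to 1.20) and Sdhd 1.10 (1.03 to 1.16), while Sdha had 0.991 (0.949 to 1.03). Scaled by the median gene, which lay at 0.066 on the log2 scale, the sum of the 94 genes had a ratio of 0.942.

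**Figure D5:**
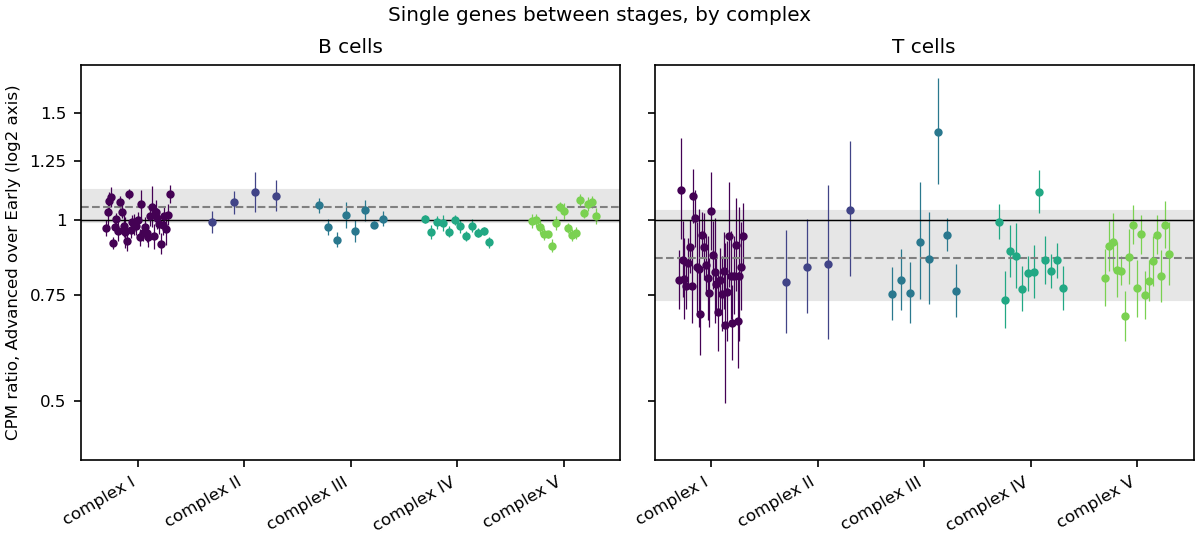
Ratio of CPM in the Advanced over the Early library (log2 axis) for each subunit gene at 10 CPM, by complex, in B-cells (left) and T-cells (right), with exact 95% intervals of the counts. The dashed line and grey band are the median and the middle quartiles of all 7092 genes. B-cell ratios lie between 0.906 and 1.11, 63 of 78 below the median of all genes, and T-cell ratios mostly lie below 1, 51 of 78 below the median of all genes.

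In T-cells the sum of the 94 genes was 21964 CPM Early and 18831 CPM Advanced, which gives a ratio of 0.857 (0.847 to 0.868). Of the 85 members 77 were below 1, where 71.6% of all genes were, 29 counted as lower (23.8% of all genes) and 1 as higher (3.36%). The median gene had a ratio of 0.864 and the median member 0.822. Scaled by the median gene the sum had a ratio of 0.994 (0.983 to 1.01), and on totals without these gene groups 0.976. Ribosomal protein genes took 36.05% of Early and 43.5% of Advanced T-cell UMIs.

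The makeup of the T-cells also differed, since 268 of 1114 Advanced T-cells were naive-like CD8 cells and 346 carried NK or memory genes, against 22 and 15 of 137 Early ones. Within subsets the ratio was 0.916 in naive-like CD8 cells, 0.951 in those with NK or memory genes, 0.983 in regulatory T-cells, 0.884 in naive-like CD4 cells, 0.923 in precursors and 0.761 in activated or helper CD4 cells. The remaining T-cells, 22 Early and 173 Advanced, had a ratio of 1.05 (1.01 to 1.09). Among members that counted as lower the ratios farthest from 1 were those of Ndufaf2 (0.664), Ndufs1 (0.668), the largest iron-sulfur subunit of complex I, and Ndufs5 (0.674). Ndufs5 had 233 UMIs (167 CPM) and 1361 UMIs (112 CPM). The member that counted as higher was Uqcrfs1, the Rieske iron-sulfur protein of complex III, with 106 UMIs (75.7 CPM) and 1281 UMIs (106 CPM), a ratio of 1.39 (1.14 to 1.72).

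In cycling B-cells the stages hardly differed in the sum, with a ratio of 0.991 (0.981 to 1.00), and 46 of the 85 members were below 1, where 44.7% of all genes were. Those that counted were 1 higher (10.2% of all genes), Ndufb6 at 87.0 and 111 CPM, and 1 lower (5.7%), Cox6a2 with 9 and 3 UMIs. Of the 9 Early UMIs 6 lay in 1 cell. The stage ratio of the sum was 0.907 in cycling T-cells, 0.902 in monocytes, 0.933 in conventional dendritic cells and 0.967 in pDCs. In plasma cells it was 1.06 (1.03 to 1.10), from 6024 and 9764 UMIs, beside immunoglobulin shares of 61.3% and 55.4%. The median gene of plasma cells had a ratio of 1.26 and the median member 1.08.

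Single members in these smaller classes rested on fewer UMIs. In monocytes 66 of 85 were below 1 (40.3% of all genes), 6 counted as lower (3.36%) and none as higher (7.43%). The lower ones were Ndufb2, Uqcrb, Ndufb8, Ndufc1, Cox5a and Cox6a1, with ratios of 0.704 to 0.796. In conventional dendritic cells 54 were below 1 (51.2% of all genes), and Ndufs6, Uqcrb, Ndufa4 and Cox6a2 counted as lower (4 members, against 6.27%) and none as higher (3.69%). There Cox6a2 had 7 Early UMIs, all in 1 of 40 cells, and 4 Advanced UMIs in 4 of 90 cells.

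In pDCs 43 were below 1 (46.3% of all genes), 1 counted as higher (5.02%), the accessory subunit gene Ndufb11, and 3 as lower (3.74%), namely Ndufaf4, Ndufa4 and Cox6a2. In cycling T-cells 68 were below 1 (43.5%), 3 counted as higher (8.98%), namely Cox6a2, Ndufv1 and Uqcrc1, and 8 as lower (4.88%). There Cox6a2 had 1 UMI in the 32 Early cells and 17 UMIs in 5 of 45 Advanced cells, 9 of them in 1 cell. In plasma cells 31 were below 1 (33.2%), 11 counted as higher (6.64%), among them Sdhb with 16 and 67 UMIs and Uqcrfs1 with 19 and 55 UMIs, and 1 as lower (1.61%), Ndufa4 with 146 and 168 UMIs. Ndufa4 thus counted as lower in plasma cells, cycling T-cells, conventional dendritic cells and pDCs, and had a ratio of 0.916 in B-cells. It did not count as lower in monocytes, nor in cycling B-cells, where no complex IV subunit had its interval below 1.

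The mt- genes between stages divided by gene. In B-cells their sum had a ratio of 1.03, but mt-Atp8 had 284 CPM Early and 451 CPM Advanced, 1.59-fold (1.56 to 1.62), and mt-Nd4l at 261 and 337 CPM, a ratio of 1.29, while mt-Cytb had 0.960. In T-cells mt-Atp8 had 187 and 338 CPM, a ratio of 1.81 (1.60 to 2.06). mt-Atp8 and mt-Atp6 overlap and are carried on the same transcript, yet mt-Atp6 had a ratio of 1.01 in B-cells. The part of read assignment between them was not tested, so the ratio of mt-Atp8 is not read as a change in transcript level. In the other classes the highest mt- ratio ran from 1.37 in conventional dendritic cells to 1.96 in plasma cells. No nuclear subunit of complex V counted as higher or lower between stages in B-cells.

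Genes outside the rule that work with the chain were read from lists in the same way. Cytochrome c (Cycs), which carries electrons from complex III to IV, was 2.98- and 2.95-fold higher in cycling than in other B-cells, and Cyc1, the cytochrome c1 of complex III that the rule does not reach by name, 2.45- and 2.46-fold. With Etfa and Etfb, 4 of the 5 carriers and chain genes at 10 CPM were past 1.5-fold higher in both libraries. The ATP synthase inhibitor Atpif1 had 214 and 272 CPM in cycling B-cells against 97.6 and 105 CPM in B-cells, and its highest level was in conventional dendritic cells, at 468 and 494 CPM.

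Beside 22% of all genes higher and 16.5% lower in cycling B-cells, 51 of the 76 genes of the mitochondrial ribosome at 10 CPM were past 1.5-fold higher and none lower, with medians of 1.83 and 1.71. In the citric acid cycle 8 of 13 were higher and none lower, and in glycolysis 8 of 15 higher and 2, the glucose transporters Slc2a1 and Slc2a3, lower. Of 26 assembly factors outside the rule, in contrast, 2 were higher (Uqcc2 and Cox17) and 1 lower (Sdhaf1), with medians of 1.10 and 1.10. None of the 8 regulators of mitochondrial biogenesis was past 1.5-fold higher in cycling B-cells and 2, Esrra and Myc, were lower, while Nrf1 had 1.32 and 1.10 and Gabpa 1.43 and 1.29. Of 9 genes of the dissociation stress response, 1 (Hsp90aa1) was higher and 5 (Fos, Fosb, Junb, Ier2 and Zfp36) were lower in cycling B-cells.

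In plasma cells 49 of the 76 mitochondrial ribosome genes, 10 of 13 in the citric acid cycle, 11 of 15 in glycolysis and 14 of 26 outside assembly factors were past 1.5-fold lower, beside the 71.9% of all genes. The 13 mt- genes were all past 1.5-fold lower in plasma cells and in monocytes (18.5% of all genes), and 12 of 13 in conventional dendritic cells (17.2%). In pDCs 2 of the 5 carriers (Cycs and Etfb) and 5 of the 76 mitochondrial ribosome genes were past 1.5-fold higher, beside 19.5% of all genes. Between stages in B-cells 1 glycolysis gene of 15 (Hk2, a hexokinase), 1 regulator of 8 (Esrra), 1 stress gene of 9 (Egr1) and 2 of 13 mt- genes counted as higher (7.3% of all genes), and 1 stress gene (Fosb) as lower (0.536%). No gene of the citric acid cycle, of the mitochondrial ribosome, of the carriers or of the outside assembly factors did so.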

How the data were processed

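Single cells of PLNs were measured in 1 Early and 1 Advanced library. The authors processed the 10x reads with Cell Ranger and deposited raw UMI counts per gene and cell. The file headers name version 6.0.1, and the submitters' processing notes name 3.1 and 3.1.0, Seurat 4.0.3 and mm10. The effect of the version was not tested.

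From the deposited counts, cells with at least 200 genes were kept and classed by raw marker UMIs (for example, a sum of at least 12 for B-cell and 4 for T-cell markers, or at least 5 of 10 cycling genes). Cells with markers of more than 1 lineage were set aside as mixed, and no doublet caller was run. UMIs were summed per class and library and scaled to CPM. Genes at 10 CPM over both libraries were compared by size, past 1.5-fold the same way in both libraries between classes, or at least 25% higher or a ratio of at most 0.8, with the interval on 1 side of 1, between stages. Intervals are exact Poisson, exact binomial or exact conditional binomial at 95%. No p-value was computed, since each stage had 1 library.

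Named genes were the 3 highest of each complex, the members with the largest ratios among those past the threshold in each comparison, the paired isoforms, complex II and the mt- genes. Other members and list genes named beside a count, such as Ndufb6, Uqcrfs1, Ndufaf2, Ndufs1, Atp5f1, Cox17, Uqcc2, Sdhaf1, Esrra, Myc, Etfa, Etfb, Nrf1 and Gabpa were named after their values were seen. The members and lists were chosen with earlier results of these data known. Promoters came from RefSeq (GRCm38.p6) and gene positions from GENCODE M21. Python 3.11.15, numpy 2.4.6, scipy 1.17.1, pandas 2.3.3 and matplotlib 3.10.9 were used. The calls were also run on simulated Poisson counts, which hold counting error alone and cannot show variation between cells or mice. Alternatives were other totals, median-of-ratios size factors, equal weight per cell, depth limits, stricter marker thresholds, other CPM minimums, thinning, leaving out cells of high depth or high mt- share, and subunits alone.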

Additional observations from a re-analysis of the deposited data

Results flagged for a closer look

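The summed level of the 94 genes in plasma cells had a ratio of 1.06 (1.03 to 1.10), Advanced over Early, while in B-cells the ratio was 0.986 (0.984 to 0.989). It was picked out because the classes lie on opposite sides of 1 between stages. In plasma cells the median gene had a ratio of 1.26 and the median member 1.08, and in B-cells 1.05 and 0.987. The median member thus lay below the median gene in both classes. With 1 library per stage the difference was not tested.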

How the results depend on the processing

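No paired analysis was possible because each stage had 1 library and no result came from a test. Of the values recomputed under the alternatives 108 stayed within counting error or 1.5 times and 72 moved. Among these values no single ratio crossed 1, but the summed ratios of classes to B-cells were not among them. The balance of higher against lower counts turned with the scaling in plasma cells, from 1 higher and 43 lower, and in conventional dendritic cells, from 6 and 1. The causes were not tested.

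On totals without immunoglobulin, ribosomal protein and mt- genes the counts past 1.5-fold were 14 higher and 4 lower in plasma cells, 24 lower in monocytes, 0 higher and 4 lower in conventional dendritic cells, 5 higher in pDCs, 3 higher in T-cells and 1 lower in cycling B-cells, and the stage ratios 0.9803 in B-cells, 0.976 in T-cells and 0.970 in cycling B-cells. With median-of-ratios size factors they were 34 higher and 0 lower in plasma cells, 7 lower in monocytes and 2 higher in T-cells, and the stage ratios 0.942, 0.994 and 0.965 in the same order. In cells of 3000 to 15000 UMIs they were 33 higher and 2 lower in cycling B-cells, 0 and 0 in plasma cells, 4 lower in monocytes, 5 lower in conventional dendritic cells and 2 higher in T-cells, the stage ratios 0.982, 0.903 and 0.940, nuclear per mt- UMIs in B-cells 0.322 Early and 0.306 Advanced, and the Advanced Cox6a2 ratio of pDCs to B-cells 1136. Without the 6.5% of cells with the most UMIs they were 35 higher and 1 lower in cycling B-cells, 0 and 0 in plasma cells, 2 higher in monocytes, 3 lower in conventional dendritic cells and 2 higher in T-cells, the stage ratios 0.908 in T-cells and 0.956 in cycling B-cells, and nuclear per mt- UMIs 0.322 and 0.309. With stricter marker thresholds they were 5 lower in monocytes and 0 higher in T-cells, the stage ratios 0.872 in T-cells and 0.973 in cycling B-cells, nuclear per mt- UMIs 0.313 in Advanced B-cells, and the Advanced Cox6a2 ratio 1092. With each cell weighted equally 2 were higher in T-cells, the stage ratios were 0.984 in B-cells and 0.898 in T-cells, and nuclear per mt- UMIs were 0.321 and 0.304. The median plasma cell, at 37013.5 UMIs Early and 36333 Advanced, lay above both depth limits. The counts of 0 and 0 in plasma cells under these limits therefore cannot be read as a loss of the differences.

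With no minimum CPM the counts were 2 higher and 1 lower in T-cells, 2 higher in monocytes, 3 lower in conventional dendritic cells, 1 lower in pDCs, and 2 higher between stages in B-cells. With a minimum of 50 CPM they were 0 higher in T-cells, 0 higher and 1 lower in monocytes, 0 lower in conventional dendritic cells, and 0 higher between stages in B-cells, since fewer genes were counted. Nuclear per mt- UMIs in B-cells were 0.329 and 0.317 without cells over 10% mt- UMIs and 0.323 and 0.310 with subunits alone. Thinned to 2000 UMIs, 87.5% and 84.3% of pDCs had a Cox6a2 UMI. Alternatives chosen after seeing the data were bands of UMIs per cell, given with the cycling cells, within which cycling cells were still the deeper, and leaving out precursors, with stage ratios of 0.983 in B-cells and 0.877 in T-cells.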
